A study of Mus musculus with 8 samples.

Results

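The genes described here are 40 members of the cell cycle and DNA replication machinery, among 21887 protein-coding genes of the RefSeq table for GRCm38. They were chosen by name for their known roles, and all 40 were found in the table. H3K27ac and H3K9ac, acetylation marks of active promoters and enhancers, were mapped by CUT&Tag, in which an antibody tethers a transposase to marked chromatin and the released fragments are sequenced. A gene counted as marked in a list of peaks if at least 1 of them was found no more than 1 kb from its start or its far end.

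The tissue was small intestinal crypts, dissociated to single cells, from male C57BL/6J mice aged 9 weeks. The groups were Fed (-Tetra) and Fast (-Tetra), given no tetracycline, and Fed (+Tetra) and Fast (+Tetra), given this antibiotic for 21 days. Fast stands for 24 h without food. No genetic change is named in the labels, and the title gives the question as how fasting, the microbiome and chromatin bear on intestinal regeneration after damage. Each mark had 4 samples, and each sample had 2 peak lists, numbered 1 and 2 in their deposited names, so there were 8 lists a mark and 16 in all. The labels do not say whether lists 1 and 2 came from separate mice, so the p-values measure only the spread between lists, which may be technical.

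Crypts hold the stem cells and the transit-amplifying cells that divide to renew the gut lining. In G1 a cell licenses its replication origins by loading the MCM helicase with the help of Cdc6 and Cdt1, and it enters S phase once cyclin D and E kinases have released the E2F factors from the retinoblastoma protein. Genes for S phase are classic E2F targets, and genes for mitosis are switched on later through promoter elements bound by NF-Y (CCAAT boxes) and by the complexes that read the cell cycle genes homology region. The inhibitors p21 (Cdkn1a) and p27 (Cdkn1b) hold cyclin-dependent kinases back, and p16 and p19ARF come from Cdkn2a.

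The promoters below are 250 bases before a RefSeq start in GRCm38.p6, read 5′ to 3′ along the gene's strand. Capitals mark matches, on either strand, to 6 strings. CCAAT is bound by NF-Y. TTTGAA is the cell cycle genes homology region. E2F factors bind TTCCCGC or the string TTGGCGC or the string TTCGCGC. The E-box of Myc and Max is CACGTG. The second E2F string can overlap the reverse of the third, and both then share 1 run of capitals. Plk1 and Aurka are mitotic kinases and were the mitotic genes marked in the most lists, 16 and 15 (Mki67 and Ccna2 also had 15, with lower median score percentiles averaged over the marks).
Plk1 (chr7:122159185-122159434, strand +): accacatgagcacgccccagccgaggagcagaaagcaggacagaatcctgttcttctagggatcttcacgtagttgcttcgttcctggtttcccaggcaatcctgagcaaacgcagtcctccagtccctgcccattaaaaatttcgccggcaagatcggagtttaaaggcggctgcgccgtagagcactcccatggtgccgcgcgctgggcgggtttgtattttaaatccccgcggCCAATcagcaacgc
Aurka (chr2:172370571-172370820, strand -): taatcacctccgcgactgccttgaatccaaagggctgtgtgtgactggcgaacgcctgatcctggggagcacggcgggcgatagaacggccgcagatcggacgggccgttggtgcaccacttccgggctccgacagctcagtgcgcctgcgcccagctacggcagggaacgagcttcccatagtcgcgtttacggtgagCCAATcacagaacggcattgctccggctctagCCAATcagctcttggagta
Pcna, the sliding clamp of the replication fork, and Mcm6, a subunit of the helicase, stand for the replication genes, Mcm6 in place of Mcm4, which was marked in 1 list more but had no entry.
Pcna (chr2:132253181-132253430, strand -): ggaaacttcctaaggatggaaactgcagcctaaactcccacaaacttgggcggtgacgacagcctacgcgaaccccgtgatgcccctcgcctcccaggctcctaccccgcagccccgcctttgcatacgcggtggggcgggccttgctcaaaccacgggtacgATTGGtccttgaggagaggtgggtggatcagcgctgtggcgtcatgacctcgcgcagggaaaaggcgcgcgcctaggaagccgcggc
Mcm6 (chr1:128359706-128359955, strand -): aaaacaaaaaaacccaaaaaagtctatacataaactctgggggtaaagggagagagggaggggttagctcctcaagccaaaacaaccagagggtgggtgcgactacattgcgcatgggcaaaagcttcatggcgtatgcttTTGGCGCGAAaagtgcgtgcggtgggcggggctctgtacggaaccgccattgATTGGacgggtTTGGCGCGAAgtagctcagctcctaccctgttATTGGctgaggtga
Cdkn1a, Cdkn2a and Bub1, a kinase of the spindle checkpoint, were marked in the fewest lists. Ccnd1, the fourth of these, had no entry.
Cdkn1a outer start (chr17:29090729-29090978, strand +): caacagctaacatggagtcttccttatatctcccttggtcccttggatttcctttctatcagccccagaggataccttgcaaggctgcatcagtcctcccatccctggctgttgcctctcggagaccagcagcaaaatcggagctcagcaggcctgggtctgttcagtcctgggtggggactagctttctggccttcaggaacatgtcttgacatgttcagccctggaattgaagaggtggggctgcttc
Cdkn1a inner start (chr17:29093519-29093768, strand +): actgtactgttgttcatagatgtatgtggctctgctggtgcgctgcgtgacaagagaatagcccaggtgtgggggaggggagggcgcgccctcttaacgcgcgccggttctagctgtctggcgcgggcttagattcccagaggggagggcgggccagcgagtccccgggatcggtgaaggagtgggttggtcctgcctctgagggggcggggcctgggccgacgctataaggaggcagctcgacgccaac
Cdkn2a outer start (chr4:89294620-89294869, strand -): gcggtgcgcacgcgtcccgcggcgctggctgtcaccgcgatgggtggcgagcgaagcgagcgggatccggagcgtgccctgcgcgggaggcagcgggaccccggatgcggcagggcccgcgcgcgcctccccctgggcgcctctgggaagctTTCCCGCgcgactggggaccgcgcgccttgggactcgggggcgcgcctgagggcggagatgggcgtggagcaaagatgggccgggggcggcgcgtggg
Bub1 (chr2:127831860-127832109, strand -): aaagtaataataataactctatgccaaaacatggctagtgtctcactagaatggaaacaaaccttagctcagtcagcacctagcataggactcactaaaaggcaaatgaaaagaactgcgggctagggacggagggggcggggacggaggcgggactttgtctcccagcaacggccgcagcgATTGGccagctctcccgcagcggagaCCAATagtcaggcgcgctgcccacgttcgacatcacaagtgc

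The Plk1 and Aurka promoters carry CCAAT within 19 bases of the start, and Aurka a second match at 51. In both genes TTTGAA lies in the 50 bases after the start, which are not printed. In Mcm6 each of 2 runs of overlapping E2F strings lies upstream of a CCAAT match. Neither Cdkn1a promoter holds any of the 6 strings, and they differ in CpG, with 2 at the outer and 23 at the inner start over 300 bases (250 before to 50 after). Promoters were listed for 32 of the 40 genes, with 38 starts in all. Mcm4, Ccna2, Ccnd1, Ccnd2, Ccne2, Aurkb, Gins2 and Myc had no entry.

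CCAAT occurred in 300-base promoters of 23 of the 32 genes, and in 65.8% of their promoters against 38.2% of all 21263 promoters of the table. At least 1 of the 3 E2F strings occurred in 15 genes, in 42.1% of promoters against 10.4% of all. These 15 included Mcm3, Mcm5, Mcm6, Mcm7, Cdc6 and Cdt1 of the origin-licensing machinery. TTGGCGC alone was in 28.9% of the genes' promoters and 3.09% of all. CCAAT and TTTGAA occurred together in 10 genes, in 26.3% of promoters against 6.38%. Of these 10, Aurka, Plk1, Ccnb2, Cdc20, Cdk1, Top2a and Mki67 act in or mark the later cell cycle, while Mcm2, E2f2 and E2f3 are not mitotic genes. CACGTG was in 4 genes (Cdk4, Cdk6, E2f3 and Tyms), in 10.5% of promoters against 7.84%. The genes' promoters had a median GC content of 59% (all, 56.3%) and a median of 24 CpG per 300 bases (all, 13). These matches describe the windows and do not show binding.

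Lists held 32684 to 68922 H3K27ac peaks and 17360 to 99353 H3K9ac peaks. Read totals were not given, so depth is unknown. The labelled tissue was checked with marker genes. All 12 epithelial markers (Epcam, Cdh1, Vil1, Cdx2 and others) were marked by H3K27ac in every list, and 10 to 12 by H3K9ac. Endothelial markers (4 genes) and genes of other organs (5 genes) were marked by H3K27ac in no list, and by H3K9ac in at most 1 and 3 genes a list. Mesenchyme had 0 to 1 of 6 genes marked by H3K27ac and 0 to 2 by H3K9ac. Immune markers, of 8, had H3K27ac at a mean of 3.75 genes in Fed and 5.5 in Fast lists (range over all lists 2 to 6), and H3K9ac at 2 and 2.25. Ptprc, which encodes the leukocyte antigen CD45, had H3K27ac in each of the 4 Fast lists and in none of the Fed lists, and had H3K9ac in no list. Of the 8 immune markers, 4 had H3K27ac in more Fast and 1 in more Fed lists, and for H3K9ac these were 2 and 1. Markers of crypt cell types are given in the closing section.

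Most of the 40 genes were acetylated in these crypts. H3K27ac marked 29 and 33 of them in the Fed (-Tetra) lists, 34 and 34 in Fast (-Tetra), 28 and 33 in Fed (+Tetra), and 35 and 30 in Fast (+Tetra). This was 32 ± 2.62 genes (SD, n = 8 lists), or 80% of the 40, where 47.6% of all genes were marked. H3K9ac marked 21 and 31, 32 and 30, 26 and 25, and 35 and 24 in the same order, or 28 ± 4.72 genes (70%, against 46.9% of all genes). In every list of either mark the share of the 40 was above that of all genes. Both marks were present on 19 to 33 of the 40 when lists of the same group and number were paired. Of all genes, 32.5% to 45.1% had both in such pairs.

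**Figure D1:**
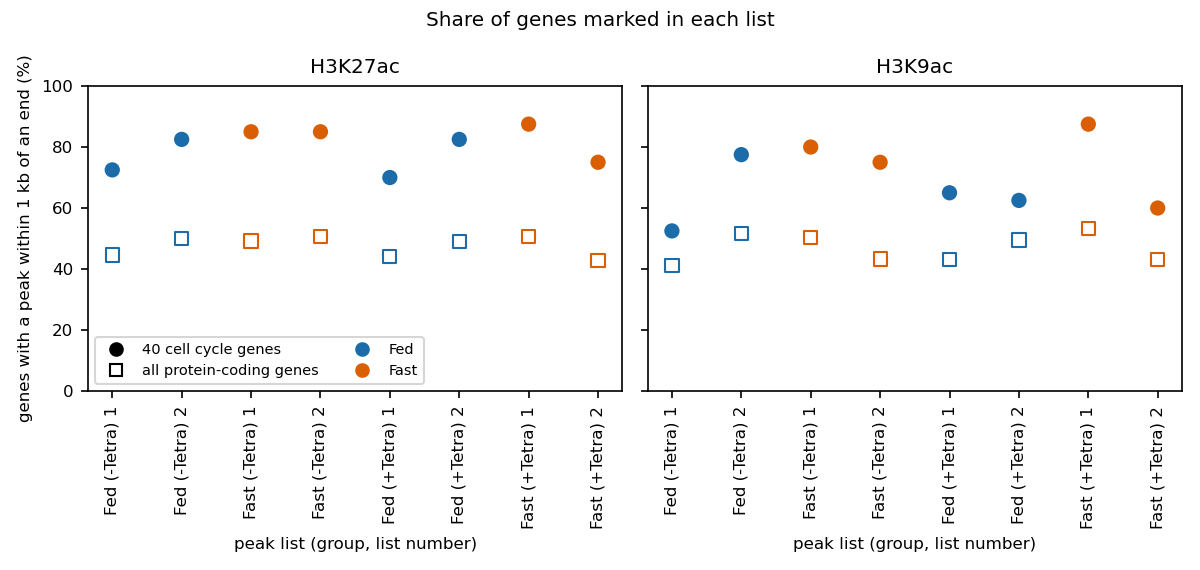
Share of genes with a peak within 1 kb of an end (y axis, percent) in each of the 8 lists of a mark (x axis, group and list number), for the 40 cell cycle genes (filled circles) and all 21887 protein-coding genes (open squares), blue for Fed and orange for Fast. The circles lie between 70% and 87.5% for H3K27ac and between 52.5% and 87.5% for H3K9ac, above the squares in every list.

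H3K27ac was present in all 8 lists at 20 of the 40 genes (50%), against 33.6% of all genes. These were Pcna, Mcm4, Mcm6, Mcm7, Cdc6, Cdt1 and Gins2 (replication), Rrm1 (a subunit of ribonucleotide reductase), Ccnd2, Ccne2 and Cdk4 (passage through G1), Mki67, Ccna2, Cdc20 and Plk1 (late cycle), E2f1, E2f2, E2f3 and Myc (transcription factors), and Cdkn1b. H3K9ac was present in all 8 at 7 genes (17.5%), against 21.1% of all genes: Pcna, Mcm4, Ccne2, Aurka, Plk1, Myc and Cdkn1b. Without Aurka, the other 6 were marked in all 16 lists (15% of the 40, against 17.6% of all genes). Aurka missed only the second H3K27ac list of Fast (+Tetra). Genes in no list were few. Bub1, Cdkn1a and Cdkn2a had H3K27ac in none (7.5%, against 39.4%), and Cdkn1a had H3K9ac in none (2.5%, against 25.2%).

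More H3K27ac than H3K9ac lists marked 21 of the 40 genes, and the reverse held for 7, with 12 equal. Over all genes these shares were 26.2%, 27.6% and 46.2%. The widest gaps towards H3K27ac were at Cdc6 and E2f1, both in 8 H3K27ac and 3 H3K9ac lists. Mycn, a Myc paralogue, was the opposite, with 2 H3K27ac and 7 H3K9ac lists.

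**Figure D2:**
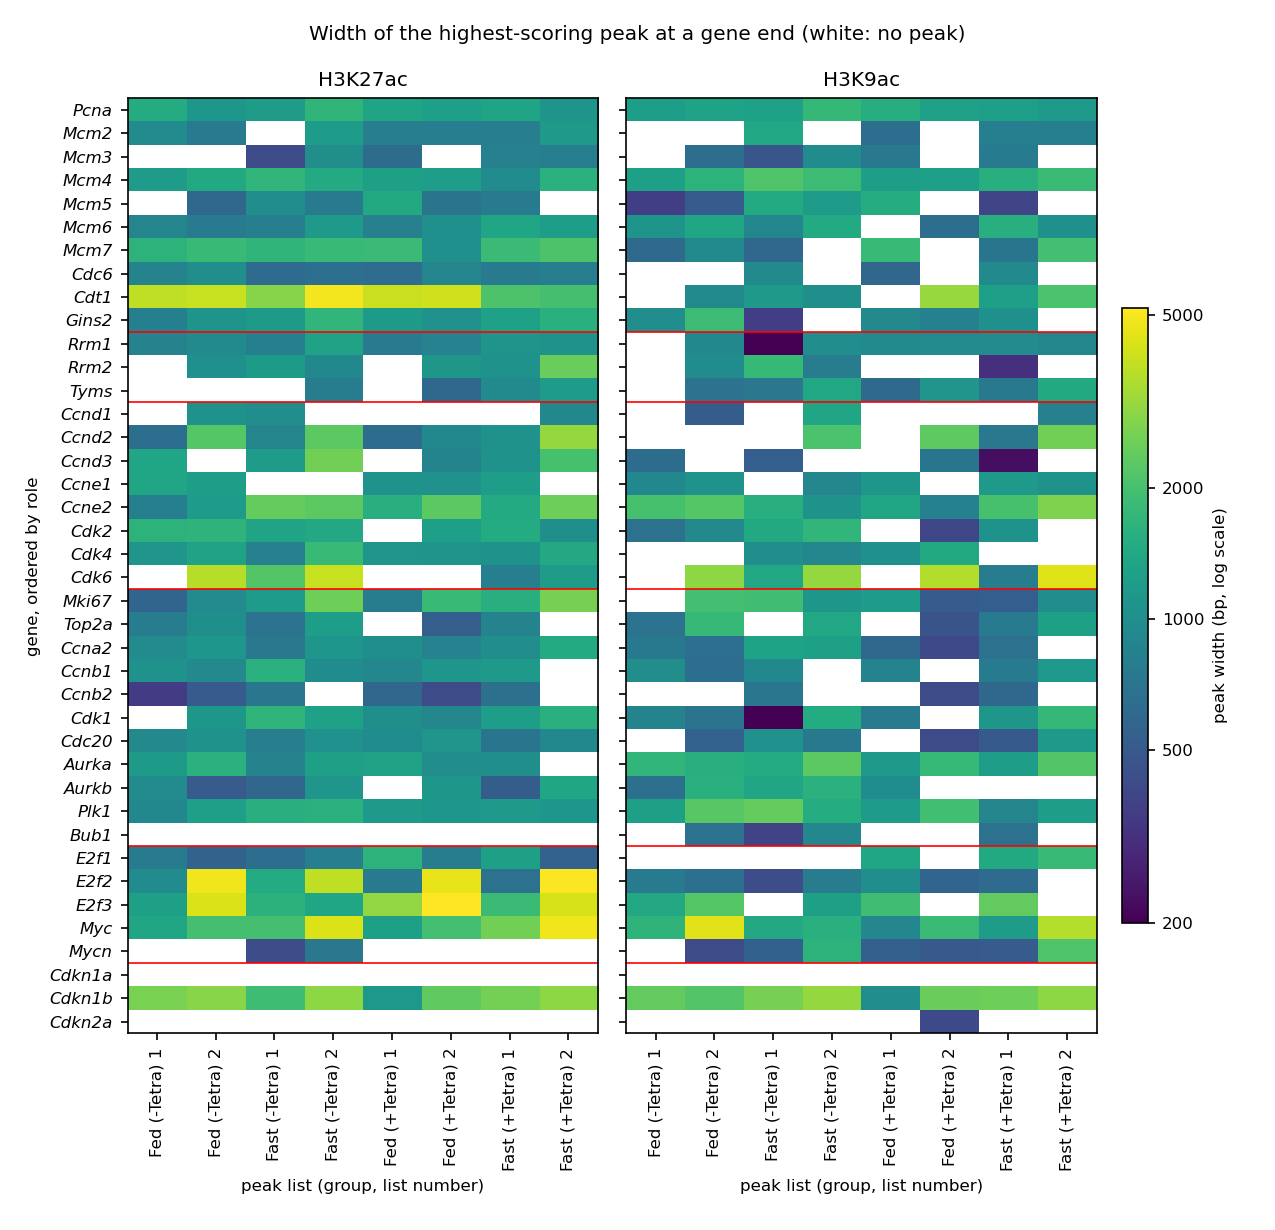
Width of the highest-scoring peak at either end of each of the 40 genes (rows) in the 8 lists of H3K27ac (left) and H3K9ac (right), coloured by width in bp on a log scale, white where no peak lay within 1 kb. Red lines part the roles, from the top replication, nucleotide supply, G1 cyclins and kinases, late cycle, transcription factors and inhibitors, and Cdkn1a is white throughout.

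Replication genes had the fullest H3K27ac marking. The 10 genes were marked in 92.5% of gene and list pairs, and in 73.8% by H3K9ac. Pcna, at chr2:132249286-132253180, was marked by both in every list. Its highest-scoring H3K27ac peak measured 1483 and 1126 bp in Fed (-Tetra), then 1195 and 1691 bp in Fast (-Tetra). It measured 1333 and 1260 bp in Fed (+Tetra), and 1341 and 1080 bp in Fast (+Tetra). The 1080 bp peak, in list 2, lay at the far end of the gene and the others at its start. At the start itself, H3K27ac peaks measured 1126 to 1691 bp in all 8 lists. The H3K9ac peak measured 1156 to 1745 bp. Fed and Fast lists overlapped in both marks. Mcm4, at chr16:15623897-15637400, had H3K27ac peaks of 966 to 1718 bp and H3K9ac peaks of 1235 to 2128 bp. Several of these peaks cannot be given to 1 gene. The Mcm4 peak covered an end of Prkdc, whose product acts in DNA repair and which lies 44 bp away, in all 16 lists. The Pcna peak covered an end of Cds2 in 7 H3K27ac and 8 H3K9ac lists, and the Mcm7 peak an end of Ap4m1 in 8 and in 5 of 6. Among the helicase subunits, Mcm3 was marked least over both marks, by H3K27ac in 1 Fed and 4 Fast lists and by H3K9ac in 2 and 3. Its H3K27ac peaks were 426 to 999 bp wide.

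Cdt1, which loads the MCM helicase, had the widest H3K27ac peaks of the replication genes by median over lists (3884 bp). They measured 3806 and 3961 bp in Fed (-Tetra), 2895 and 4897 bp in Fast (-Tetra), 4000 and 4131 bp in Fed (+Tetra), and 2098 and 1990 bp in Fast (+Tetra). Their score, the authors' own value per peak with no stated unit, stood at the 73.5 to 99.3 percentile of its list. In 7 of 8 lists this peak lay at the far end of Cdt1 (chr8:122568015-122573130, + strand) and covered an end of the next gene, Aprt, which encodes an enzyme of purine salvage. At the Cdt1 start itself a peak of 931 to 1990 bp covered the start in all 8 lists.

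The 3 nucleotide supply genes were marked in 75% of pairs by each mark. Rrm1 had H3K27ac in 8 lists and H3K9ac in 7. Rrm2, the subunit of ribonucleotide reductase that rises in S phase, had H3K27ac in 2 Fed and 4 Fast lists and H3K9ac in 1 and 3. Tyms, which makes thymidylate, had H3K27ac in 1 Fed and 3 Fast lists and H3K9ac in 3 and 4. Neither gene had either mark in the first Fed (-Tetra) lists.

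G1 cyclins and kinases were marked in 78.1% of pairs by H3K27ac and 64.1% by H3K9ac, unevenly among the paralogues. Of the D cyclins, which start G1 progression, Ccnd1 (chr7:144929931-144939831) had only 3 lists of each mark, with H3K27ac peaks of 916 to 1058 bp. Its count depends in part on the 1 kb window. In list 2 of Fast (-Tetra) and list 1 of Fast (+Tetra), the nearest H3K27ac peak lay 1320 and 1399 bp from an end. In the remaining unmarked lists it lay 14322 to 14473 bp away. For H3K9ac the nearest peak in unmarked lists lay 1617 to 5505 bp away. Ccnd2 had H3K27ac in 8 lists, of 629 to 3112 bp, and H3K9ac in 4. Ccnd3 had 6 and 4. Of the E cyclins, which drive entry into S phase, Ccne1 had H3K27ac in 4 Fed lists but 1 Fast list, and Ccne2 had both marks in all. The kinase gene Cdk6 showed how the rule on gene ends can miss a promoter. Marked at its ends in 5 and 6 lists, it had a peak over its listed start, 2889 bp inside the outer end, in 8 of 8 lists of each mark, up to 3980 bp (H3K27ac) and 4444 bp (H3K9ac) wide.

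Late cycle genes were marked in 81.8% of pairs by H3K27ac and 76.1% by H3K9ac. Plk1 (chr7:122159435-122169884) had H3K27ac peaks of 913 to 1605 bp and H3K9ac peaks of 876 to 2422 bp, and a peak covered the start shown above in all 16 lists. Aurka had H3K27ac in 7 lists and H3K9ac in 8, and each peak also covered an end of Cstf1, which encodes an RNA cleavage factor. Ccnb2, a mitotic cyclin, had the lowest median H3K27ac width of the group, 548 bp, with 359 to 723 bp in 6 lists. Bub1 (chr2:127800197-127831859) stood apart. It had no H3K27ac peak at an end in any list, the nearest to its outer start lying 5217 to 39114 bp away. H3K9ac peaks of 391 to 902 bp covered that start in 4 lists, 1 Fed and 3 Fast.

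Transcription factor genes were marked in 85% of pairs by H3K27ac and 75% by H3K9ac, and peaks at E2f2, E2f3 and Myc reached 5128, 5193 and 4838 bp. Peaks of 3000 bp or more occurred in some list at 7 of the 37 genes with an H3K27ac peak (18.9%, against 13.5% of all genes): Ccnd2, Cdk6, Cdt1, E2f2, E2f3, Myc and Cdkn1b. For H3K9ac these were Cdk6, Cdt1, Myc and Cdkn1b, 4 of 39 (10.3%, against 5.87%). E2f2 widths split by list number. For H3K27ac they were 964, 1484, 757 and 680 bp in the lists numbered 1 and 4867, 3785, 4649 and 5128 bp in those numbered 2, in the order of groups given for Pcna. The 2 sets of lists did not overlap. The 680 bp peak, in Fast (+Tetra) list 1, lay at the far end of the gene and the other 7 at its start. Lists 2 were wider than lists 1 in all 4 groups at 7 of 20 genes (35%, against 31% of all genes), and for H3K9ac at Myc alone of 7 (14.3%, against 32.3%). E2f3 peaks ranged from 1281 to 5193 bp, at the 90.4 to 98.7 score percentile. E2f1 peaks were 554 to 1640 bp.

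By peaks at gene ends, the 3 inhibitors had the lowest marking, 33.3% of pairs by H3K27ac and 37.5% by H3K9ac, and differed from each other. This count leaves out the inner start of Cdkn1a, which a peak covered in 8 of 8 lists of each mark, so the ranking depends on the rule. Cdkn1b (chr6:134920401-134925525) was in all 16 lists, with scores at the 90.9 to 97.6 percentile for H3K27ac and 95.1 to 99.7 for H3K9ac. Cdkn2a (chr4:89274473-89294619) had no H3K27ac peak and 1 H3K9ac peak, of 417 bp, in Fed (+Tetra) list 2. Peaks nearest its outer start were otherwise 11212 to 15689 bp away for H3K27ac.

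Cdkn1a (chr17:29090979-29100722) counted as unmarked in all 16 lists, yet it had peaks inside the gene. Its second listed start lies at 29093769, 2790 bp into the gene, beyond the 1 kb window. A peak covered this start in 8 of 8 lists of each mark. For H3K27ac it was 2436 to 3010 bp wide in 7 lists, at the 91.9 to 97.5 score percentile. In Fed (+Tetra) list 1 it was 1040 bp wide, at the 18.2 percentile, and a wider peak of 1553 bp (78.4 percentile) lay beside the start. For H3K9ac the peak over the start was 2466 to 4327 bp wide, at the 82.9 to 99.5 percentile. Fed and Fast lists overlapped in the width of the H3K27ac peak over the start, at 1040 to 2477 bp and 2437 to 3010 bp. The nearest peak stayed 2009 to 2490 bp (H3K27ac) and 2129 to 2537 bp (H3K9ac) from the outer start. Of the promoters printed above, the marked start was the one with 23 CpG, and the unmarked start the one with 2.

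**Figure D3:**
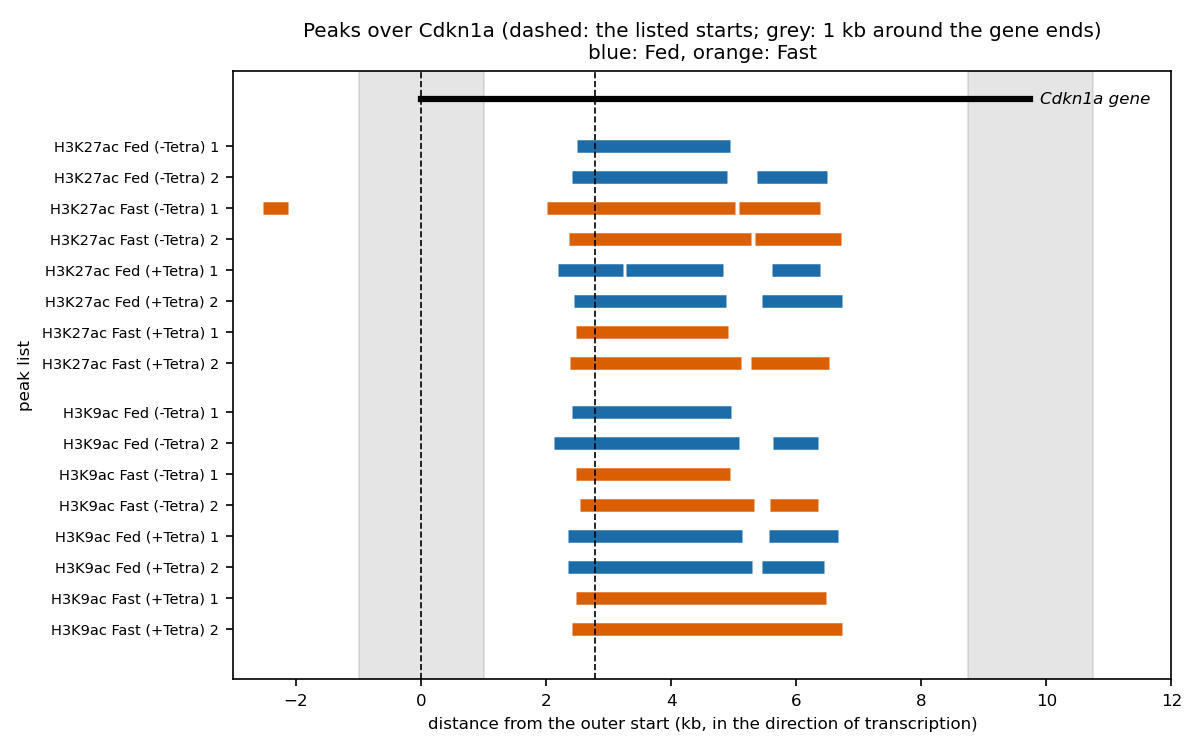
Peaks (bars) over Cdkn1a in the 16 lists (rows), by distance from the outer start in kb (x axis), blue for Fed and orange for Fast, with the listed starts dashed and 1 kb around the gene ends shaded. Every list has a peak over the inner start 2790 bp into the gene, and none reaches the shaded windows.

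Fasting was compared by the number of genes marked. H3K27ac marked 30.8 ± 2.63 of the 40 in Fed and 33.2 ± 2.22 in Fast lists (SD, n = 4 each), a difference of 6.25 percentage points. H3K9ac marked 25.8 ± 4.11 and 30.2 ± 4.65, a difference of 11.2 points. Neither exceeded the SD between lists of a group, which was 7.18 points for H3K27ac and 13.3 for H3K9ac. Mean shares of all genes in Fed and Fast lists were 46.9% and 48.4% for H3K27ac, and 46.4% and 47.5% for H3K9ac. The gain in the 40 genes came from lists 1. With lists 1 alone their differences were 15 and 25 points, and with lists 2 alone -2.5 points for both marks. In lists 1, H3K27ac marked 44.6% and 44% of all genes in Fed, and 49.2% and 50.7% in Fast. For H3K9ac these shares were 41.1% and 43.1% in Fed, and 50.3% and 53.2% in Fast. Lists 1 also differed in peak number. The Fast lists 1 held 68922 and 57132 H3K27ac peaks where the Fed lists 1 held 36632 and 32684, and 99353 and 98128 H3K9ac peaks where the Fed lists 1 held 17360 and 24799. When each list was cut to its highest-scoring 32392 (H3K27ac) or 17249 (H3K9ac) peaks, the number in the shortest list, the differences were 1.88 and 0 points. For the 32 genes with a listed start, the gene start alone gave 6.25 (H3K27ac) and 15.6 points (H3K9ac). Peaks at any of their listed starts gave 2.34 and 12.5 points. Single lists moved them as well. The H3K27ac difference was 3.12 points without list 1 of Fed (+Tetra) or of Fast (+Tetra), and 3.75 without list 1 of Fed (-Tetra). The H3K9ac difference was 5 points without list 1 of Fed (-Tetra), 4.38 without list 1 of Fast (+Tetra), 17.5 without list 2 of Fed (-Tetra) and 18.1 without list 2 of Fast (+Tetra).

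No gene of the 40 switched with feeding. A peak in every Fast list and in none of the Fed lists was found at 0 genes for either mark (0.0959% of all genes for H3K27ac, 0.0777% for H3K9ac), and the reverse also held for 0 (0.0137% and 0.0411%). Of the 17 genes with H3K27ac in 1 to 7 lists, 10 had it in more Fast than Fed lists (58.8%, against 49% of all such genes): Mcm3, Ccnd1, Ccnd3, Cdk1, Cdk2, Cdk6, Aurkb, Rrm2, Tyms and Mycn. For Cdk6 this holds at the gene ends only, as a peak covered its listed start in 8 of 8 lists of each mark. The reverse held for Mcm2, Ccnb1, Ccnb2, Ccne1 and Aurka (29.4%, against 35%). For H3K9ac, 18 of 32 had more Fast lists (56.2%, against 44.4%), among them Mki67, Mcm2, Mcm3, Mcm6, Cdk1, Cdc6, Cdt1, Rrm1, Rrm2 and Tyms. More Fed lists marked 6 (18.8%, against 38.6%): Ccna2, Aurkb, E2f2, E2f3, Gins2 and Cdkn2a. Aurkb, a kinase of chromosome segregation, therefore lay on the Fast side for H3K27ac and on the Fed side for H3K9ac. Mcm2 and Ccnb2 lay the other way round, with H3K27ac in more Fed and H3K9ac in more Fast lists.

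Tetracycline was compared in the same way. H3K27ac marked 32.5 ± 2.38 of the 40 without and 31.5 ± 3.11 with it, and H3K9ac 28.5 ± 5.07 and 27.5 ± 5.07 (SD, n = 4 lists each). Both differences were -2.5 percentage points. Mean shares of all genes without and with tetracycline were 48.6% and 46.6% for H3K27ac, and 46.6% and 47.2% for H3K9ac. Leaving out 1 list moved the H3K27ac difference between -5.62 and 0.625 points, and the H3K9ac difference between -9.38 (without list 1 of Fast (+Tetra)) and 4.38 (without list 2 of Fast (+Tetra)). With lists 1 alone the H3K9ac difference was 10 points and with lists 2 alone -15. The genes with H3K27ac in more lists with tetracycline were 5 of 17 (29.4%, against 30.3%), and those with more lists without it 8 (47.1%, against 51.5%). For H3K9ac these were 10 of 32 (31.2%, against 41.4%) and 12 (37.5%, against 38.8%). Mycn had H3K27ac only in the lists of Fast (-Tetra), at 434 and 727 bp. These were low-ranked peaks, at the 8.08 and 27.9 score percentile of their lists. With lists cut to the same length, the H3K27ac difference was 4.38 points and the H3K9ac difference -16.2 points. The 13.3 points between lists of a group come from the full lists and do not measure the spread of the cut lists. Whether the H3K9ac difference in the cut lists exceeds their own spread was not tested.

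Peak width was then tested with limma, as the log2 width of the highest-scoring peak at a gene end, centred on each list's median, over genes marked in all 8 lists of a mark. For the contrast of Fast with Fed, limma called 0 of 7362 genes for H3K27ac (0%) and 0 of 4626 for H3K9ac (0%) at a Benjamini-Hochberg adjusted p under 0.05, so none of the 20 and 7 members tested passed. At an unadjusted p under 0.05 the H3K27ac count was 466 genes (6.33%), of which 6 were members (30% of 20), and the H3K9ac count was 253 (5.47%), with no member. Of the 6 members, Myc, Mki67 and Ccne2 had higher mean widths in Fast lists, and Cdt1, Cdc20 and Cdc6 lower ones. The members' median difference was 0.04 for H3K27ac (all genes, -0.04), with 10 above and 10 below 0. For H3K9ac it was 0.19 (all genes, -0.01), with 5 above and 2 below 0. Without centring, the H3K27ac median was 0.20 for the members and 0.12 for all genes.

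**Figure D4:**
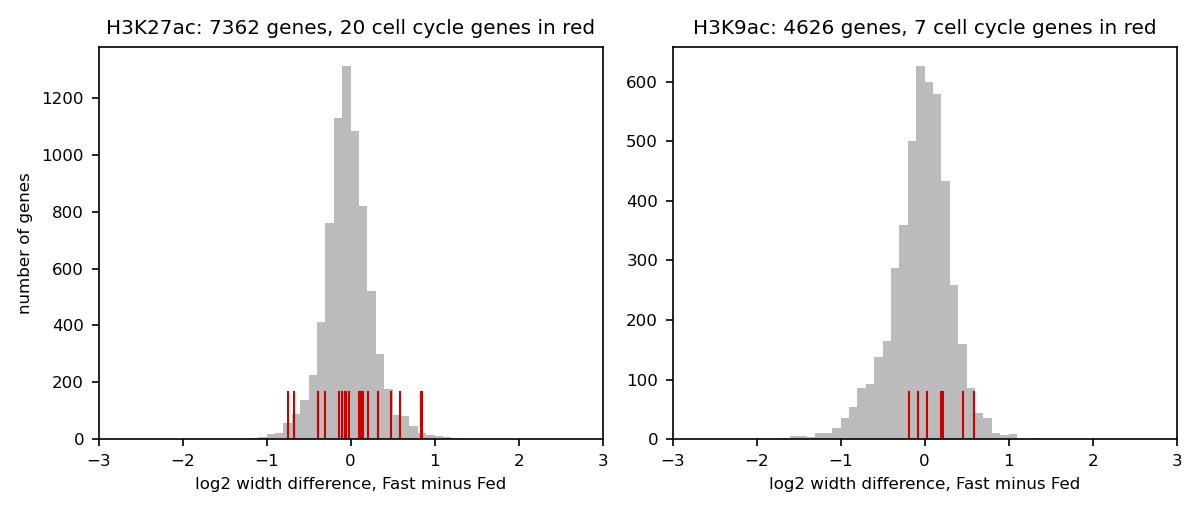
Number of genes (y axis) by log2 width difference, Fast minus Fed (x axis), for genes that had H3K27ac (left) or H3K9ac (right) in all 8 lists. Red ticks, drawn at a fixed height, give the 20 and 7 cell cycle genes tested, with E2f3 lowest (-0.74) and Myc highest (0.84) for H3K27ac, and Plk1 lowest (-0.18) and Cdkn1b highest (0.59) for H3K9ac.

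Myc, the growth regulator at chr15:61985341-61990361, had H3K27ac peaks of 1375 and 1982 bp in Fed (-Tetra), 1991 and 4400 bp in Fast (-Tetra), 1273 and 1972 bp in Fed (+Tetra), and 2605 and 4838 bp in Fast (+Tetra). All 4 Fast lists were wider than all 4 Fed lists, the closest being 1991 against 1982 bp. Myc was the only 1 of 20 with this order (5%, against 4.74% of all genes), and none had the opposite order (0.312% of all). The fitted difference was 0.84 (SE 0.26) on the log2 scale, with a limma adjusted p of 0.6781, which ran from 0.474 to 0.999 over the alternatives tried. Base pairs covered within 1 kb of the gene ends gave a difference of -0.00163 (1675 to 2001 bp covered per list). That measure stops at the window's edge, so the peaks of 4400 and 4838 bp both counted as 2001 bp. H3K9ac at Myc measured 906 to 4516 bp, with Fed and Fast overlapping.

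Mki67, which encodes the proliferation antigen Ki-67 (chr7:135689784-135716450), had H3K27ac peaks of 580 and 969 bp in Fed (-Tetra), 1191 and 2526 bp in Fast (-Tetra), 789 and 1794 bp in Fed (+Tetra), and 1554 and 2673 bp in Fast (+Tetra). Within each list number and tetracycline state the Fast list was the wider, but the ranges overlapped. The difference was 0.83 (SE 0.28; limma adjusted p = 0.7002, 0.408 to 0.997 over the alternatives). Both Fed (-Tetra) lists and list 1 of Fast (-Tetra) had 2 peaks within 1 kb of an end, of which only the highest-scoring was measured. With the widest peak the difference was 0.56. With covered length, which cuts peaks at the window's edge, it was 0.22. Ccne2 (chr4:11190433-11204779) had 819 and 1191 bp, 2415 and 2297 bp, 1566 and 2295 bp, and 1471 and 2522 bp in the same order of groups. Fed and Fast lists were separate only without tetracycline. Its difference was 0.48 (SE 0.19; limma adjusted p = 0.77, 0.543 to 0.997 over the alternatives).

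Cdt1, with the widths given above, had a difference of -0.68 (SE 0.19; limma adjusted p = 0.6781, 0.343 to 0.988 over the alternatives). The low values were the 2 lists of Fast (+Tetra) and list 1 of Fast (-Tetra), while list 2 of Fast (-Tetra) was the widest of all 8. The 1990 bp peak, in Fast (+Tetra) list 2, lay at the Cdt1 start and the others at the far end. The difference therefore mixes peaks at different ends. With peaks at the gene start only, and so without the peak over Aprt, the difference was 0.11 (limma adjusted p = 0.957). Cdc20, which activates the anaphase-promoting complex, had narrow peaks of 922 and 1059, 810 and 1042, 979 and 1100, and 714 and 917 bp in the order of groups used above. The peaks of 1100 and 917 bp lay at the far end of the gene, which is 52 bp from an end of Elovl1, and the other 6 at its start. After centring, all 4 Fast lists lay below all 4 Fed lists, which no other of the 20 showed (5%, against 2.65% of all genes), and Myc was again the only gene with the opposite order (5%, against 1.68%). The difference was -0.39 (SE 0.15; limma adjusted p = 0.7501, 0.56 to 0.997 over the alternatives), and -0.24 with the start only (limma adjusted p = 0.866). Cdc6 had 858 and 996, 622 and 661, 637 and 880, and 758 and 808 bp, a difference of -0.39 (SE 0.15; limma adjusted p = 0.7327, 0.567 to 0.997 over the alternatives), with overlap between Fed and Fast. With a 2.5 kb window the Cdc6 difference was -0.04 (limma adjusted p = 0.981).

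**Figure D5:**
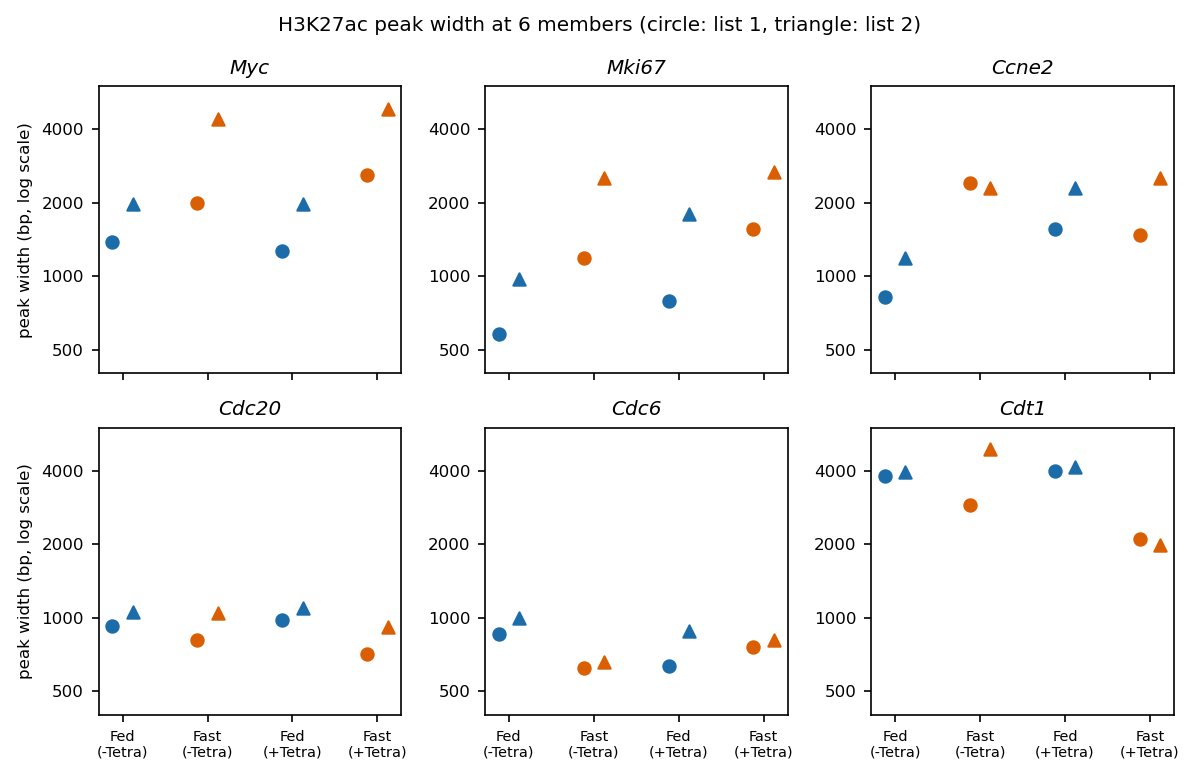
H3K27ac peak width in bp (y axis, log scale) at Myc, Mki67, Ccne2, Cdc20, Cdc6 and Cdt1 in the 4 groups (x axis), 1 point per list, circles for list 1 and triangles for list 2, blue for Fed and orange for Fast. Only at Myc do all Fast points (1991 to 4838 bp) lie above all Fed points (1273 to 1982 bp).

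For H3K9ac, Cdkn1b was the only 1 of 7 genes wider in every Fast than every Fed list (14.3%, against 1.66% of all genes). Its widths were 2374 and 2175 bp in Fed (-Tetra), 2671 and 3105 bp in Fast (-Tetra), 988 and 2477 bp in Fed (+Tetra), and 2538 and 3007 bp in Fast (+Tetra). The difference was 0.59 (SE 0.28; limma adjusted p = 0.8946). After centring this order held only for Mcm4 (14.3%, against 2.2%), at 1279 and 1654, 2128 and 1864, 1235 and 1264, and 1556 and 1836 bp, with a difference of 0.45 (SE 0.22; limma adjusted p = 0.8946). None of the 7 was narrower in every Fast list (1.1% of all genes in bp, 1.43% after centring).

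For tetracycline, limma called 0 genes in either mark (0%). At an unadjusted p under 0.05 there were 287 for H3K27ac (3.9%), with E2f3 the only member of 20, and 178 for H3K9ac (3.85%), with no member. E2f3 had H3K27ac widths of 1281, 4299, 1633 and 1353 bp without tetracycline and 3060, 5193, 1845 and 4249 bp with it, which overlap, and a difference of 0.88 (SE 0.36; limma adjusted p = 0.9996). The members' median was -0.01 for H3K27ac (all genes, 0.01). For H3K9ac it was -0.25 (all genes, 0.00), with all 7 genes below 0 and none called. The interaction of feeding and tetracycline was also called by limma at 0 genes in either mark (0%), with 265 at an unadjusted p under 0.05 for H3K27ac (3.6%; the members Ccne2, Cdkn1b and Cdt1) and 169 for H3K9ac (3.65%; the member Ccne2).

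The genes' peaks were narrower and ranked lower than those at other genes for H3K27ac. Their median width was 965 to 1439 bp per list, below the median of all marked genes (1172 to 1521 bp) in all 8 lists, and the median score percentile was also lower in all 8. For H3K9ac the median width was lower in 5 of 8 lists and the median score percentile in 7 of 8. Of the peaks at genes of known strand, 92.4% (H3K27ac) and 94.9% (H3K9ac) lay at the gene start rather than the far end.

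Other genes of the pathway, 141 in 5 lists, were read in the same way. H3K27ac marked a mean of 116 of them in Fed and 116.8 in Fast lists. It marked 86 in all 8 lists and 10 in none (33.6% and 39.4% of all genes). H3K9ac marked 112.8 and 104.5, with 48 in all 8 and 5 in none (21.1% and 25.2% of all genes). None was marked throughout one feeding state and absent from the other in either mark, and limma called none of the 86 and 48 whose width was tested. Of the 141 genes, 88 had H3K9ac in 1 to 7 lists, 47 of them in more Fed and 23 in more Fast lists. Of all such genes these shares were 38.6% and 44.4%. Of the 32 such genes among the 40, 6 had more Fed and 18 more Fast lists, a contrast that was not tested. For H3K27ac, 45 of the 141 were in 1 to 7 lists, 18 in more Fed and 19 in more Fast lists (35% and 49% of all such genes).

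Replication origin and fork genes (40, such as Orc1, Cdc45 and Pola1) had H3K27ac at a mean of 30.25 genes in Fed and 30 in Fast lists, and H3K9ac at 28.75 and 28.25. Nucleotide supply genes (16, such as Tk1 and Cad) had 13.75 and 13.75, and 13.75 and 12.75. Mitosis genes (36, such as Ttk, Kif11 and Cenpe) had 32 and 33.5, and 29 and 28.25, and 27 of them had H3K27ac in all 8 lists. Genes of cell cycle transcription (25, such as Rb1, Foxm1 and Mybl2) had 20.25 and 19, and 21 and 17.75. Inhibitors and checkpoint genes (24, such as Trp53, Mdm2 and Chek1) had 19.75 and 20.5, and 20.25 and 17.5. Of the genes with H3K9ac in 1 to 7 lists, 10 of 14 in cell cycle transcription and 10 of 13 inhibitors and checkpoint genes had more Fed than Fast lists (38.6% of all such genes), and 1 each the reverse (44.4%). Genes with no H3K27ac peak at an end in any list were Orc1, Orc4, Prim2, Rfc1, Shmt2, E2f6, Nfyc, Mdm4, Skp2 and Cdc14b.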

How the data were processed

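Per the labels, CUT&Tag libraries came from an Epicypher kit. The submitters' processing notes name FastQC, Bowtie, SAMtools and mm10, without versions. Peak names begin with MACS, per the files. The caller's version, its cutoff and the use of the IgG antibodies are not given in the sources used here. Each deposited list gives a chromosome, start, end, name and score per peak, where the score is the authors' own value with no stated unit. It was used only to rank peaks within a list. List names describe downsampled data, so the reads behind a list are unknown and intervals that need them are left out.

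Peaks on the main chromosomes were matched to RefSeq genes (GRCm38.p6) with Python 3.11.15. Each gene was given the width of its highest-scoring peak within 1 kb of an end. limma 3.58.1 in R 4.3.3 fitted log2 width, centred per list, with feeding, tetracycline and their interaction over genes marked in all 8 lists of a mark, and p-values were adjusted by Benjamini and Hochberg (threshold 0.05). The script was tested on simulated data. Of 100 genes given a log2 width change of 1 between Fed and Fast, limma called 50 (H3K27ac) and 37 (H3K9ac). With a change of 2 it called 90 and 83 of 100. A width can therefore change without a call.

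The 40 genes, the pathway lists and the markers were chosen with earlier results of these data known. All 40 genes are named; of the pathway lists the rule names genes whose marking separates Fed from Fast completely, and those with the smallest adjusted p under 0.05; pathway genes outside it were named after their values were seen. Sequences came from the RefSeq promoter table, matched by symbol, for the genes of the late cycle and of replication marked in the most lists (2 each) and 4 marked in the fewest. Alternatives were a 2.5 kb window, equal peak numbers, peaks of at least 500 bp, the gene start only, the widest peak, no centring, list number as a block, covered length as log2(bp + 100), leaving out lists and, chosen after seeing the data, any listed start.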

Additional observations from a re-analysis of the deposited data

Results flagged for a closer look

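At 2 genes, after centring, both Fast lists had narrower peaks than both Fed lists without tetracycline and wider peaks than both with it. Cdkn1b (p27) had a log2 H3K27ac width difference, Fast minus Fed, of -0.432 without and 0.65 with tetracycline. Its widths were 2690 and 2923 bp in Fed (-Tetra), 1889 and 2994 bp in Fast (-Tetra), 1143 and 2358 bp in Fed (+Tetra), and 2626 and 3003 bp in Fast (+Tetra). In base pairs list 2 of Fast (-Tetra) was not below the Fed lists, so the direction there holds only after centring. The limma interaction was 1.08 (SE 0.41; adjusted p = 0.9978), and such a pattern occurred at 302 of 7362 genes (4.1%).

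Ccne2 (cyclin E2) had an H3K9ac difference of -0.663 without and 1.09 with tetracycline, from widths of 2021 and 2208 bp, 1537 and 1058 bp, 1371 and 837 bp, and 2019 and 2760 bp in the same order. Here the order also held in base pairs. The limma interaction was 1.75 (SE 0.60; adjusted p = 0.9971), and 200 of 4626 genes (4.32%) had the pattern. Its H3K27ac interaction was -1.16 (SE 0.38; adjusted p = 0.9978), the opposite sign.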

How the results depend on the processing

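No member was called by limma under any alternative. Of the values for the comparisons 272 stayed near the main value and 24 did not. Mean shares, differences and medians had to stay within the SD between the full lists of a group. Numbers of calls had to be equal, such as 0 and 0, or within 1.5 times of the main count. Shares in all 8 lists had to stay within a 95% binomial (Wilson) interval, which treats the 40 genes as independent. limma called 1 gene (H3K27ac, feeding) with a 2.5 kb window, 3 without centring and 98 with covered length, which tests all genes marked in at least 1 list. For tetracycline it called 1 with the start only and 91 with covered length, and for the interaction 65 with covered length. With equal peak numbers, the mean share of the 40 genes marked was 69.7% (H3K27ac) and 46.9% (H3K9ac), the share in all 8 lists 32.5% and 2.5%, the H3K9ac tetracycline difference -16.2 points, and the H3K9ac feeding median 0.533 (1 gene left). Fewer peaks enter there by construction. Covered length gave H3K9ac medians of 0.965 (feeding) and -0.0732 (tetracycline), over 39 genes. Cdt1 reversed with the start only (0.114). Myc was near 0 with covered length (-0.00163), which cuts wide peaks at the window's edge by construction. Cdc6 was -0.036 with a 2.5 kb window.

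Leaving out lists moved the Fast minus Fed share from -2.5 to 15 points (H3K27ac) and from -2.5 to 25 (H3K9ac), the H3K9ac share in all lists from 17.5% to 40% (fewer lists), the H3K27ac feeding median from -0.0583 to 0.308, the H3K9ac tetracycline median from -0.364 to -0.0359, and the H3K9ac tetracycline calls from 0 to 1 (without list 1 of Fast (-Tetra)). With list number as a replicate block limma called 0 genes in all 6 fits (unadjusted p under 0.05: 596, 356 and 345 for H3K27ac; 299, 218 and 195 for H3K9ac, for feeding, tetracycline and interaction). Differences between lists 2 and 1 correlated between groups at 0.0803 to 0.229 (H3K27ac) and 0.0793 to 0.147 (H3K9ac), so the numbers were not taken as pairs. Without replicate 1 or 2 each group had 1 list, so an additive model was fitted and no interaction. Depth is unknown, so a missing peak may lie below detection.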

Other observations

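Markers of crypt cell types were also read from the lists, as counts with no test. Of 7 stem cell genes (Lgr5, Olfm4, Ascl2 and others), H3K27ac marked a mean of 2.5 in Fed and 5.25 in Fast lists, and H3K9ac 3 and 4.5. For H3K27ac 6 of the 7 were marked in more Fast than Fed lists and none in fewer. Of all genes with H3K27ac in 1 to 7 lists, 49% had more Fast and 35% more Fed lists. For H3K9ac 4 of the stem cell genes had more Fast and 1 more Fed lists (44.4% and 38.6% of all such genes). As given above, Fast lists 1 held more peaks than Fed lists 1 in both marks. Goblet cell genes (5) had means of 2.25 and 3.25 for H3K27ac and of 2 and 1.75 for H3K9ac. Paneth cell genes (5) had 0.5 and 1.25, and 0.75 and 1. Enteroendocrine genes (4) had 1 and 1, and 0.5 and 1. Tuft cell genes (3) had 0 and 0.25, and 0.25 and 0.5. Enterocyte genes (6 of 7 found in the table, without Si) had 5.5 and 5.25, and 5.75 and 4.75. In bulk crypts, more cells of a type and more acetylation per cell cannot be told apart.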
